A study of Saccharomyces cerevisiae with 14 samples.

Results

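The 10 genes followed belong to the yeast phosphate response and were chosen by gene identifier around *PHM6*, which had been picked because it was among the mRNAs with the highest enrichment by Dhh1 in these libraries. Of these 10 genes, 9 had counts among the 5945 RNAs (4792 of them mRNAs), and *PHO80* was not analysed here. RNA that coprecipitated with Ccr4, Dhh1 or Puf5 after formaldehyde cross-linking was compared with RNA from a mock immunoprecipitation of untagged cells (UT IP) and with input RNA of untagged cells (UT input). Each IP had 3 libraries and the input had 2, biological replicates according to the methods. All cells were of the BY4741 strain background, were grown in rich YPAD medium at 30° and were not stressed. In each tagged strain a myc epitope had been added to Ccr4, Dhh1 or Puf5, and the same anti-myc antibody was used in every IP, the UT IP included. Input was available for untagged cells only, so a different level of an mRNA in the tagged cells and a different share of it bound by the factor cannot be told apart.

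When phosphate is scarce, the CDK inhibitor Pho81 holds back the cyclin-CDK pair Pho80-Pho85, the transcription factor Pho4 stays in the nucleus, and genes for phosphate uptake, release and storage are switched on. Their products include the high-affinity transporters Pho84 and Pho89, the secreted acid phosphatase Pho5, the vacuolar polyphosphate polymerase subunit Vtc3, the intracellular phosphatase Phm8, Spl2, which acts on low-affinity phosphate uptake, and Phm6, whose function is not known. Ccr4 is the main cytoplasmic deadenylase, Dhh1 is a DEAD-box helicase that promotes decapping and represses translation, and Puf5 is a sequence-specific RNA-binding protein that recruits the Ccr4-Not complex.

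Library totals ran from 20376517 to 23943342 counts, and rRNA took 95.1% to 97.4% of them. The rest differed between groups. The share of counts on mRNAs was 2.18% ± 0.00578 for the UT IP, 3.70% ± 0.333 for Ccr4, 3.43% ± 0.357 for Dhh1 and 3.07% ± 0.306 for Puf5 (SD, n = 3 each), and 2.51% and 2.81% for the 2 inputs. The **a** mating type markers *MFA1*, *MFA2*, *STE2* and *BAR1* had at least 47 counts in every library, and *LEU2*, *URA3* and *MET17*, which are deleted in BY4741, had at most 18. Since the library size used below was the total count, the median mRNA lay above the UT IP by a log2 of 1.24 with Ccr4, 0.94 with Dhh1 and 0.61 with Puf5. The value of each phosphate mRNA is therefore read against that median. An mRNA is said to pass, or to be enriched, at a false discovery rate (FDR) under 1% and a log2 over 1, and 2 IPs, the 2 references or 2 segments are said to differ at an FDR under 5%. With TMM factors, which centre most RNAs on no change, the same medians were 0.13, 0.04 and 0.03.

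*PHM6* (YDR281C) was low in the mock IP and higher in each factor's IP. It had 20, 9 and 8 counts in the UT IP libraries. It had 147, 131 and 196 with Ccr4, 103, 69 and 66 with Dhh1, and 157, 113 and 134 with Puf5. The 2 inputs had 27 and 39 counts, above each UT IP library and below each IP library of a tagged factor. Scaled to the library total (CPM), these were 0.532 ± 0.264 (SD, n = 3) in the UT IP, 7.10 ± 1.5 with Ccr4, 3.62 ± 0.778 with Dhh1 and 5.91 ± 0.887 with Puf5 (SD, n = 3 each). The groups fell in the order Ccr4 IP, Puf5 IP, Dhh1 IP, UT input and UT IP, and only the Ccr4 IP and Puf5 IP libraries overlapped.

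**Figure D1:**
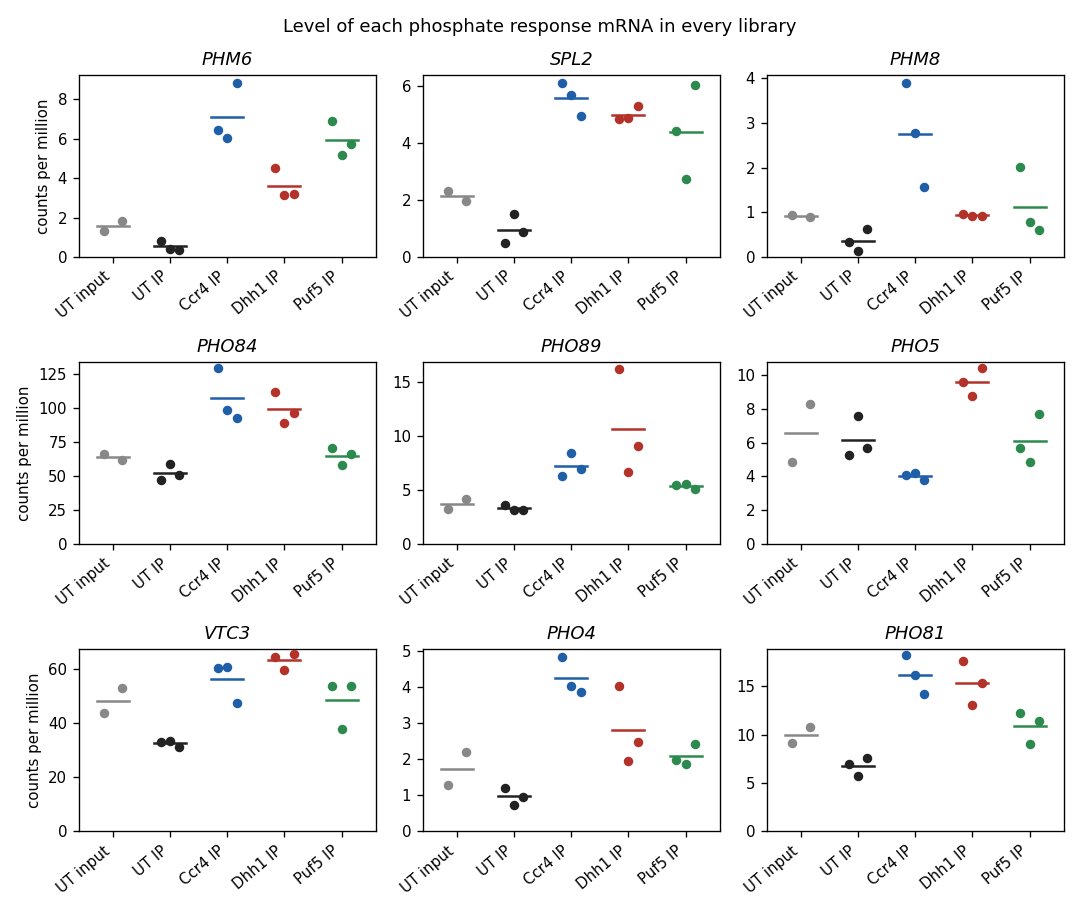
CPM (vertical axis, from 0, a separate scale for each mRNA) of the 9 phosphate response mRNAs in the 14 libraries (horizontal axis, by group); points are libraries and bars are group means. *PHM6* runs from 0.352 in a UT IP library to 8.81 in a Ccr4 IP library, and *PHO5* has its lowest values in the Ccr4 IP.

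Relative to the UT IP, the log2 enrichment of *PHM6* was 2.66 ± 0.32 (SE) with Dhh1, 3.62 ± 0.31 with Ccr4 and 3.36 ± 0.31 with Puf5, and with TMM factors it was 1.77, 2.55 and 2.81. Of the mRNAs tested, 99.6%, 99.7% and 99.5% had a lower log2 in the respective IP. These values are given without a test, because the Dhh1 IP and UT IP libraries were used to choose *PHM6*, and the 3 comparisons share the UT IP. The choice was made on enrichment by Dhh1, but with earlier results of these data known. The tests over the input may therefore not be independent of it. Over the UT input, *PHM6* was enriched by a log2 of 2.14 ± 0.32 (SE) in the Ccr4 IP (edgeR, adjusted p = 6.98e-06) and 1.88 ± 0.32 in the Puf5 IP (edgeR, adjusted p = 5.4e-05). There, 23.3% of all RNAs tested passed an FDR of 1% with a log2 over 1 for Ccr4 and 4.49% for Puf5, and the median mRNA stood at 0.79 and 0.19. That fit held all 14 libraries, and so took part of its estimate of the spread from the libraries that chose *PHM6*. In a fit of the 8 Ccr4 IP, Puf5 IP and UT input libraries alone, added after the data were seen, the log2 was 2.14 ± 0.29 and 1.88 ± 0.29 (edgeR, adjusted p = 1.69e-05 and 8.25e-05), where 23.3% and 4.39% of all RNAs passed. Both calls of the larger fit held when each of the 5 libraries was left out in turn and with TMM factors, where the log2 was 1.47 and 1.72. For the Dhh1 IP the log2 over the input was 1.18 ± 0.32, not tested. *PHM6* did not differ detectably between the Puf5 IP and the Ccr4 IP (log2 of -0.26 ± 0.24, edgeR, adjusted p = 0.376, and 0.343 in the fit of 8 libraries), and with TMM factors the sign of this difference turned (0.26).

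Of the regulators of the pathway, *PHO4* and *PHO81* both passed with Ccr4 and Dhh1, and neither passed with TMM factors in any IP. *PHO4* (YFR034C), which encodes the transcription factor, had 29, 16 and 22 counts in the UT IP, 111, 87 and 86 with Ccr4, 92, 43 and 51 with Dhh1, 45, 41 and 57 in the Puf5 IP, and 26 and 47 in the input. Every library of a tagged factor lay above every UT IP library. *PHO81* (YGR233C), for the CDK inhibitor, had 125 to 172 counts in the UT IP, 316 to 417 with Ccr4, 288 to 401 with Dhh1, 198 to 280 in the Puf5 IP and 187 and 232 in the input. The log2 of *PHO4* over the UT IP was 2.08 ± 0.31 (SE) with Ccr4, 1.5 ± 0.32 with Dhh1 and 1.07 ± 0.32 with Puf5 (edgeR, adjusted p = 1.78e-06, 0.000239 and 0.00795). The Puf5 call was lost without any 1 of 5 libraries (Puf5 IP replicate 1, 2 or 3, UT IP replicate 2 or 3), with adjusted p up to 0.0432. *PHO81* had a log2 of 1.26 ± 0.19 with Ccr4 and 1.18 ± 0.19 with Dhh1, close to the median mRNA in each, and 0.69 ± 0.19 in the Puf5 IP, short of the cutoff. With TMM factors *PHO4* stood at 0.97, 0.59 and 0.50 and *PHO81* at 0.12, 0.26 and 0.098 with Ccr4, Dhh1 and Puf5.

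*SPL2* (YHR136C), a target of Pho4, was higher with all 3 factors. It had 12, 33 and 20 counts in the UT IP, 140, 123 and 110 with Ccr4, 110, 107 and 109 with Dhh1, 101, 60 and 142 in the Puf5 IP, and 47 and 42 in the input. All 9 libraries of the tagged factors were above all UT IP and input libraries. Its log2 over the UT IP was 2.5 ± 0.32 (SE) with Ccr4, 2.34 ± 0.32 with Dhh1 and 2.16 ± 0.32 with Puf5 (edgeR, adjusted p = 2.02e-07, 3.83e-06 and 5.02e-06). *SPL2* was the only one of the 8 tested phosphate mRNAs enriched by all 3 factors both with library totals and with TMM factors (log2 of 1.38, 1.45 and 1.57), and its calls over the UT IP held without each of the libraries in turn. Against the input it passed for Ccr4 (1.37 ± 0.33, edgeR, adjusted p = 0.0016), while the values for Dhh1 (1.21 ± 0.33) and Puf5 (1.03 ± 0.33) had adjusted p-values of 0.0151 and 0.0354 (edgeR). The Ccr4 call over the input was lost without either input library.

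*PHM8* (YER037W), for the intracellular phosphatase, had the fewest counts of the set. It had 8, 3 and 14 counts in the UT IP, 89, 60 and 35 with Ccr4, 22, 20 and 19 with Dhh1, 46, 17 and 14 in the Puf5 IP, and 19 and 19 in the input. All Ccr4 IP libraries were above all others except Puf5 IP replicate 1, which lay between them. Its log2 over the UT IP was 2.77 ± 0.50 (SE) in the Ccr4 IP (edgeR, adjusted p = 1.29e-05), a call that held without each library and with TMM factors (1.68). The values for Dhh1 (1.26 ± 0.53) and Puf5 (1.52 ± 0.52) had adjusted p-values of 0.0246 and 0.0145 (edgeR) and did not pass. The Puf5 value ran from 0.84 without Puf5 IP replicate 1 to 2.05 without UT IP replicate 3, and passed without Puf5 IP replicate 3 or UT IP replicate 3 (edgeR, adjusted p = 0.00708 and 0.006). The Dhh1 value passed without UT IP replicate 3 (1.79, edgeR, adjusted p = 0.00849). Over the input the log2 was 1.55 ± 0.51 in the Ccr4 IP, with an adjusted p of 0.0122 (edgeR).

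With library totals, the mRNAs of the 2 high-affinity transporters had their highest log2 over the UT IP with different factors, *PHO84* with Ccr4 and *PHO89* with Dhh1. Measured from the median mRNA of each IP, both were highest with Dhh1. With Ccr4, Dhh1 and Puf5, *PHO84* then stood at -0.20, -0.020 and -0.29, and *PHO89* at -0.14, 0.72 and 0.076. Neither passed in the direct test of Ccr4 over Dhh1 (0.11 ± 0.14 and -0.56 ± 0.24, edgeR, adjusted p = 0.625 and 0.108). There, with TMM factors, *PHO84* turned to -0.11 and *PHO89* passed (-0.74, edgeR, adjusted p = 0.0222). *PHO84* (YML123C), for the proton-coupled transporter, had 1121, 1288 and 1163 counts in the UT IP, 2968, 2138 and 2063 with Ccr4, 2542, 1952 and 1982 with Dhh1, 1616, 1278 and 1555 in the Puf5 IP, and 1351 and 1324 in the input. Puf5 IP replicate 2 fell within the range of the UT IP. Its log2 over the UT IP was 1.04 ± 0.14 (SE) with Ccr4, 0.92 ± 0.14 with Dhh1 and 0.32 ± 0.14 with Puf5, each under the median mRNA, and with TMM factors each was below 0 (-0.11, -0.0048 and -0.27). The Ccr4 call (edgeR, adjusted p = 9.68e-07) rested on a log2 just over 1 and was lost without Ccr4 IP replicate 1 (0.88) or UT IP replicate 1 (0.96). *PHO84* was among the most abundant mRNAs, with 99.1% of mRNAs below it in the input, and when mRNAs were put in 5 classes by input level, its class had a median log2 of 0.67 (Ccr4), 0.66 (Dhh1) and 0.39 (Puf5). The methods describe strand-specific counting for UTRs and coding regions, but do not say it of the counts per RNA and per segment used here, so antisense reads at *PHO84* cannot be told apart from sense reads.

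*PHO89* (YBR296C), for the sodium-coupled transporter, had 88, 70 and 72 counts in the UT IP, 145, 182 and 155 with Ccr4, 370, 147 and 187 with Dhh1, 126, 123 and 120 in the Puf5 IP, and 66 and 90 in the input. Dhh1 IP replicate 1 was far above the other 2 Dhh1 IP libraries. The log2 over the UT IP was 1.66 ± 0.25 (SE) in the Dhh1 IP (edgeR, adjusted p = 1.1e-05), and 1.23 without that library, still past the cutoff. With TMM factors it was 0.72 and no longer passed (edgeR, adjusted p = 0.0394). Of the mRNAs tested, 91.2% had a lower log2 in the Dhh1 IP. In the Ccr4 IP *PHO89* had a log2 of 1.10 ± 0.25 (edgeR, adjusted p = 0.00032), under the median mRNA, turned below 0 with TMM factors (-0.016) and lost as a call without Ccr4 IP replicate 2 (0.98). *PHO89* was the one phosphate mRNA of the 8 tested that passed over the input in the Dhh1 IP (1.51 ± 0.29, edgeR, adjusted p = 0.000846), where 2.72% of all RNAs tested passed. This call was lost without Dhh1 IP replicate 1 or UT input replicate 1.

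**Figure D2:**
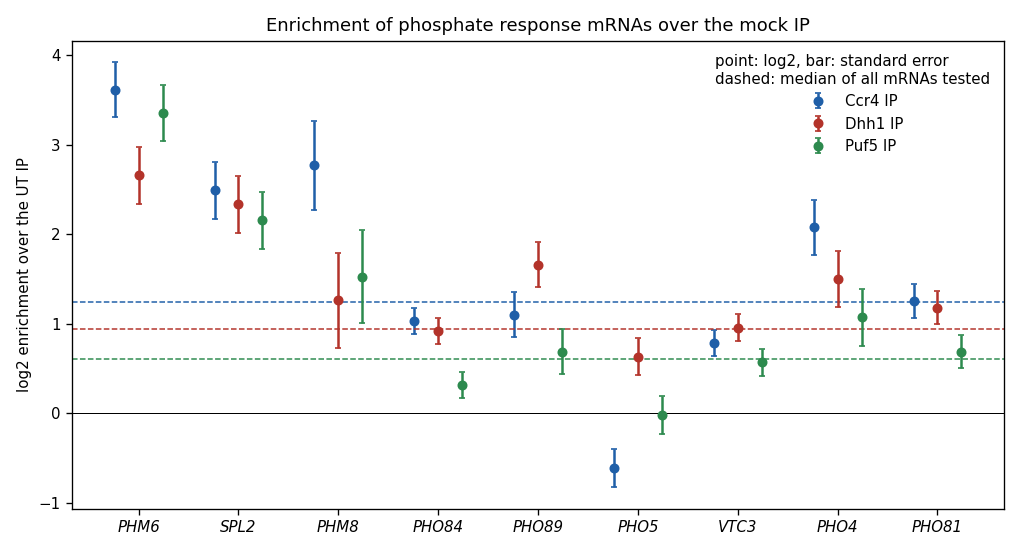
Log2 enrichment over the UT IP (vertical axis) of each phosphate response mRNA (horizontal axis) in the Ccr4, Dhh1 and Puf5 IPs; points are fitted log2 values, bars standard errors, and dashed lines the median of the mRNAs tested in each IP (1.24, 0.94 and 0.61). *PHM6* and *SPL2* are above the dashed line of their colour in all 3 IPs, and *PHO5* is below it in all 3.

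*PHO5* (YBR093C), for the secreted acid phosphatase, had its lowest values with Ccr4 and its highest with Dhh1. It had 126, 166 and 129 counts in the UT IP, 93, 91 and 84 with Ccr4, 218, 193 and 214 with Dhh1, 129, 106 and 181 in the Puf5 IP, and 99 and 177 in the input. All Ccr4 IP libraries were below all other libraries, and all Dhh1 IP libraries were above them. The log2 over the UT IP was -0.61 ± 0.22 (SE) in the Ccr4 IP, with 0.215% of mRNAs lower, but its adjusted p of 0.0114 (edgeR) did not pass the FDR of 1%. With TMM factors it was -1.74 (edgeR, adjusted p = 5.13e-07). It was 0.63 ± 0.21 in the Dhh1 IP, turned to -0.28 with TMM factors, and -0.02 ± 0.21 in the Puf5 IP, both under the median mRNA. *PHO5* lies next to *PHO3*, a related acid phosphatase gene expressed when phosphate is plentiful. Whether reads were split between them was not tested. The log2 of *PHO3* over the UT IP was -0.38 ± 0.23 with Ccr4, 0.53 ± 0.23 with Dhh1 and 1.21 ± 0.23 with Puf5, where it passed (edgeR, adjusted p = 0.000143). That call was lost without Puf5 IP replicate 3 (0.76), which had 777 counts against 336 and 369 in the other 2 libraries, and with TMM factors (0.62). In the Ccr4 IP *PHO3*, like *PHO5*, passed as lower with TMM factors (-1.52, edgeR, adjusted p = 1.99e-05) and by DESeq2 (-1.58, DESeq2, adjusted p = 4.99e-10).

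*VTC3* (YPL019C), for the polyphosphate polymerase subunit, did not pass in any IP. It had 705 to 793 counts in the UT IP, 1054 to 1382 with Ccr4, 1312 to 1470 with Dhh1, 831 to 1257 in the Puf5 IP, and 887 and 1129 in the input. Its log2 over the UT IP was 0.79 ± 0.15 (SE), 0.96 ± 0.15 and 0.57 ± 0.15 in the Ccr4, Dhh1 and Puf5 IP, none over the cutoff of 1. It lay below the median mRNA in the Ccr4 IP, with 26.9% of mRNAs lower, and near it in the other two, with 51.1% and 47.0% lower. The values were, with TMM factors, -0.36, 0.039 and -0.031. In the class of highest input level, which held *VTC3*, *PHO84*, *PHO81* and *PHO5*, the median log2 was 0.67, 0.66 and 0.39. *VTC3* and *PHO81* lay above that median in each IP, and *PHO5* below it. *PHO84* lay above it with Ccr4 (1.04) and Dhh1 (0.92) and below it with Puf5 (0.32).

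Over the UT IP, 6 of the 8 tested phosphate mRNAs passed in the Ccr4 IP, where 57.8% of all RNAs tested passed. In the Dhh1 IP 4 of 8 passed (*SPL2*, *PHO89*, *PHO4* and *PHO81*) against 37.4% of all RNAs, and in the Puf5 IP 2 of 8 (*SPL2* and *PHO4*) against 17.6%. In the lower direction (log2 under -1) 0 of 8 passed in each by edgeR, against 0.0813%, 0.0813% and 0.508% of all RNAs, and at an unadjusted p under 0.05, 1, 0 and 0 were lower and 7, 8 and 7 higher. By DESeq2, 2, 0 and 2 were lower and 3, 2 and 1 higher at that p. The share of all RNAs at that p was not taken, and by edgeR the median mRNA was itself higher. These counts are therefore not read as a trait of the phosphate mRNAs. With TMM factors or DESeq2, *PHO5* passed as lower in the Ccr4 IP (-1.74 and -1.81). The share of all RNAs that passed as lower under these 2 scalings is not given, and the 0.0813% above is for library totals. The shares that passed as higher are not far from the background. The median log2 of the 8 was 1.18, 1.22 and 0.69, beside 1.24, 0.94 and 0.61 for the mRNAs tested. All 3 libraries of the IP lay above all 3 UT IP libraries for 7 of 8 with Ccr4, 8 of 8 with Dhh1 and 5 of 8 in the Puf5 IP, which held for 77.9%, 74.5% and 49.1% of all RNAs. With TMM factors the enriched mRNAs were *SPL2* in each IP and *PHM8* in the Ccr4 IP, where 5.63% of RNAs passed for Ccr4, 1.14% for Dhh1 and 4.45% for Puf5.

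The 3 factors were then compared directly. *PHO5* was lower in the Ccr4 IP than in the Dhh1 IP by a log2 of -1.25 ± 0.21 (SE, edgeR, adjusted p = 0.000214), and *PHM8* was higher by 1.51 ± 0.44 (edgeR, adjusted p = 0.0182). These were 2 of 8 tested, where 14.7% of all RNAs differed, 2.99% lower and 11.7% higher. The *PHO5* difference held without each of the 6 libraries, with adjusted p-values up to 0.00278 (edgeR), and was -1.46 with TMM factors. That of *PHM8* was lost without Ccr4 IP replicate 1 or any 1 of the Dhh1 IP libraries, with adjusted p-values up to 0.126 (edgeR). *PHM6* stood at a log2 of 0.96 ± 0.25 for Ccr4 over Dhh1, not tested.

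Between the Puf5 IP and the Ccr4 IP, 5 of the 9 phosphate mRNAs differed, where 44.3% of all RNAs did. *PHO84* (-0.72 ± 0.14), *PHO4* (-1.01 ± 0.29), *PHO81* (-0.57 ± 0.18) and *PHM8* (-1.25 ± 0.43) were lower in the Puf5 IP on the log2 scale (edgeR, adjusted p = 0.000363, 0.00632, 0.0141 and 0.0191), beside a median mRNA at -0.56. *PHO5* was higher by 0.59 ± 0.22 (edgeR, adjusted p = 0.0269), a direction taken by 4.06% of all RNAs, while 40.2% were lower. The calls of *PHO84* and *PHO4* held without each library. *PHO81* lost its call without Ccr4 IP replicate 1 or Puf5 IP replicate 2, *PHM8* without those or Puf5 IP replicate 3, and *PHO5* without any Ccr4 IP library or Puf5 IP replicate 3. With TMM factors only *PHO5* (1.13, edgeR, adjusted p = 0.000121) and *VTC3* (0.33, edgeR, adjusted p = 0.0354) differed.

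Relative to the Dhh1 IP, 3 of 8 were lower in the Puf5 IP, where 12% of all RNAs differed, 8.82% lower and 3.17% higher. *PHO89* had a log2 of -0.98 ± 0.24, *PHO5* of -0.66 ± 0.21 and *PHO84* of -0.60 ± 0.14 (SE, edgeR, adjusted p = 0.00924, 0.0387 and 0.00762), with the median mRNA at -0.34. None of the 3 passed without Dhh1 IP replicate 1, where *PHO89* stood at -0.54, or with TMM factors. *PHO5* also lost its call without Dhh1 IP replicate 2 or 3 or Puf5 IP replicate 1 or 2.

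In untagged cells the mock IP was compared with the input, since both serve as references. *SPL2* was lower by a log2 of -1.12 ± 0.36 (SE) and *VTC3* by -0.56 ± 0.17 (edgeR, adjusted p = 0.041 and 0.0322), 2 of 8 tested, where 10.2% of all RNAs differed (10.1% lower, 0.12% higher) and the median mRNA stood at -0.40. The *SPL2* call remained only without UT IP replicate 2 and that of *VTC3* only without UT input replicate 1, and neither passed with TMM factors (-0.72 and -0.13). *PHM6* stood at -1.48 ± 0.37, not tested. Over the input, 3 of 9 passed for Ccr4 (*PHM6*, *SPL2* and *PHO4*), 1 of 8 for Dhh1 (*PHO89*) and 1 of 9 for Puf5 (*PHM6*). Of all RNAs, 23.3%, 2.72% and 4.49% passed. Without *PHM6*, around which the set was chosen, *SPL2* and *PHO4* remained for Ccr4 and none for Puf5. In the lower direction 0 passed by edgeR, where 1.04%, 1.06% and 1.84% of all RNAs passed. At an unadjusted p under 0.05, 1, 0 and 0 were lower by edgeR and 2, 0 and 0 by DESeq2, with no share of all RNAs taken at that p. *PHO5* passed as lower with Ccr4 under TMM factors or DESeq2 (-1.40 and -1.44), for which no share of all RNAs is given. *PHO4* had a log2 of 1.27 ± 0.35 (edgeR, adjusted p = 0.0039), a call lost without Ccr4 IP replicate 1 or UT input replicate 1 and with TMM factors (0.57).

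**Figure D3:**
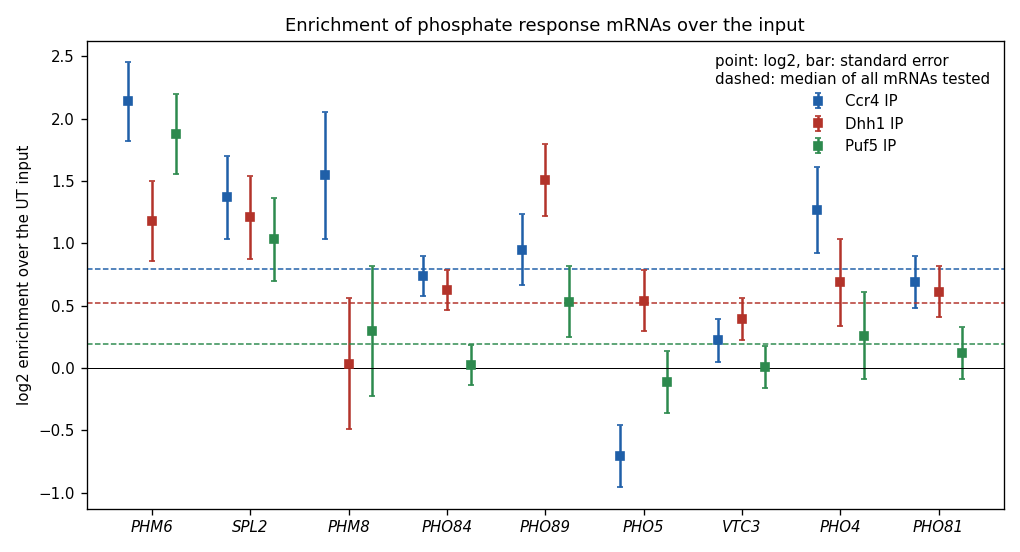
Log2 enrichment over the UT input (vertical axis) of each phosphate response mRNA (horizontal axis) in the Ccr4, Dhh1 and Puf5 IPs; points are fitted log2 values, bars standard errors, and dashed lines the median of the mRNAs tested in each IP (0.79, 0.53 and 0.19). *PHM6* has the highest value in the Ccr4 IP (2.14) and the Puf5 IP (1.88), and *PHO89* in the Dhh1 IP (1.51).

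Reads were also counted in each of 3 segments of equal length along every RNA, which shows where on the mRNA the enrichment lay. In the UT IP, *PHO84* had 329, 429 and 418 counts in its 5′ segment and 349, 367 and 332 in its 3′ segment. In the Ccr4 IP it had 631, 648 and 556 in the 5′ segment and 1721, 919 and 895 in the 3′ segment. With Puf5 the 5′ counts were 391, 330 and 462 and the 3′ counts 748, 515 and 698. The share of *PHO84* reads in the 3′ segment was 28.5% to 31.1% in the UT IP, 32.6% and 36.8% in the input, 43.0% to 58.0% with Ccr4, 38.5% to 41.1% with Dhh1 and 40.3% to 46.3% with Puf5, so that every library of a tagged factor was above every UT IP and input library. The same order held for the reads of all mRNAs together, so it is not particular to *PHO84*. Their share was 29.0% to 30.7% in the UT IP and 33.8% and 35.2% in the input. It was 37.1% to 39.5% with Ccr4, 35.5% to 35.6% with Dhh1 and 37.7% to 43.5% with Puf5.

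Tested as a difference of log2 enrichment between the 3′ and 5′ segments, *PHO84* had 1.04 ± 0.22 (SE) in the Ccr4 IP and 0.88 ± 0.22 in the Puf5 IP (edgeR, adjusted p = 0.00664 and 0.0096), and 0.41 ± 0.22 in the Dhh1 IP (edgeR, adjusted p = 0.361). *VTC3* had 0.94 ± 0.26 in the Puf5 IP (edgeR, adjusted p = 0.0164) and 0.80 ± 0.26 in the Dhh1 IP (edgeR, adjusted p = 0.0955). Of the 8 tested, 1 passed with Ccr4, 0 with Dhh1 and 2 with Puf5, where 5.6%, 2.12% and 11.4% of all RNAs did. All 3 calls were toward the 3′ end, as were those of 5.37%, 2.07% and 11.2% of all RNAs, against 0.235%, 0.0471% and 0.212% toward the 5′ end. For Dhh1, 2 of 8 had an unadjusted p under 0.05 by edgeR and 0 by DESeq2, with no share of all RNAs taken at that p. The Ccr4 call was lost without Ccr4 IP replicate 1 (0.75), and that of *VTC3* without Puf5 IP replicate 1 or 3 or UT IP replicate 3. None of the calls passed over the input or with TMM factors, and the median mRNA itself had more enrichment in the 3′ than in the 5′ segment (0.40 with Ccr4, 0.37 with Dhh1 and 0.61 with Puf5).

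The values of *PHM6* leaned toward the 5′ segment instead. In the Ccr4 IP 57.3% to 65.3% of its reads were in the 5′ segment, in the Dhh1 IP 53.4% to 54.5% and in the Puf5 IP 38.2% to 61.1%, beside 22.2% to 50% in the UT IP and 35.9% and 44.4% in the input. Puf5 IP replicate 1 lay within the range of the inputs. Its log2 over the UT IP was 4.24 ± 0.38 (SE) in the 5′ segment and 2.78 ± 0.57 in the 3′ segment with Ccr4, 3.10 ± 0.40 and 1.66 ± 0.60 with Dhh1, and 3.67 ± 0.39 and 2.67 ± 0.57 with Puf5. The difference was -1.41 ± 0.66, -1.42 ± 0.68 and -1.04 ± 0.67, given without a test, and it rests on 2 to 7 counts in the 5′ segment and 1 to 11 in the 3′ segment of the UT IP libraries. *PHM8* also leaned to the 5′ segment with Ccr4 (log2 of 3.68, and 2.05 in the 3′ segment). Its difference was -1.59 ± 1.40 with Ccr4, -0.55 ± 1.54 with Dhh1 and -0.0088 ± 1.57 with Puf5 (edgeR, adjusted p = 0.278, 0.687 and 0.801). Each UT IP library had 0 or 1 counts in the 5′ segment of *PHM8*. *SPL2* had log2 values of 2.56, 2.2 and 2.46 in its 5′, middle and 3′ segments with Ccr4, 2.45, 2.16 and 2.06 with Dhh1, and 2.16, 1.59 and 2.5 with Puf5, with standard errors of 0.39 to 0.67.

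**Figure D4:**
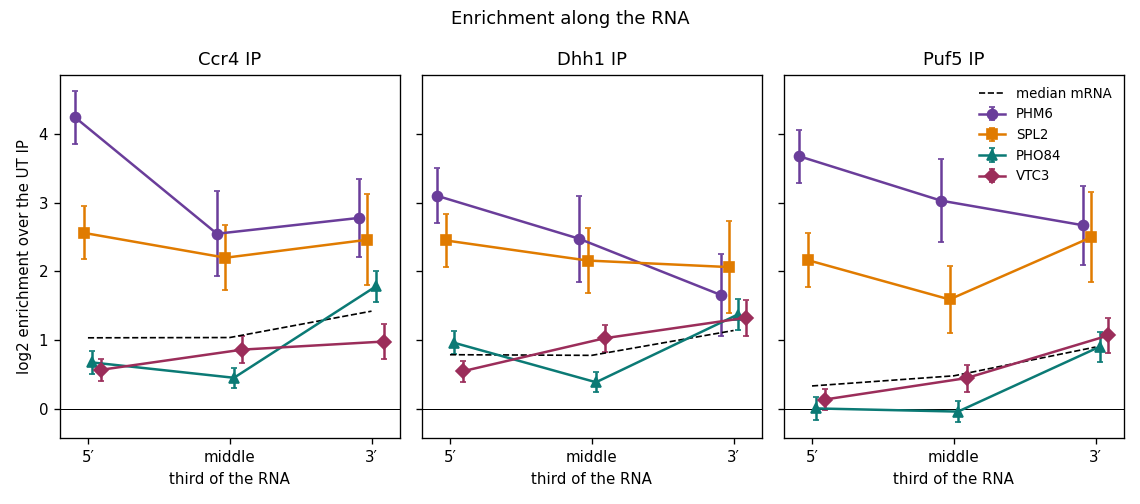
Log2 enrichment over the UT IP (vertical axis) in the 5′, middle and 3′ segments of the RNA (horizontal axis) for *PHM6*, *SPL2*, *PHO84* and *VTC3* in each IP; bars are standard errors and the dashed line is the median of the mRNAs tested. *PHM6* is highest in the 5′ segment in all 3 IPs, and *PHO84* is highest in the 3′ segment.

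Across the 14 libraries, the mRNAs whose level was most like that of *PHM6* were *HLR1*, *SWI6* and *SBE2* (Pearson's r = 0.98 each, log2 CPM, among the 2700 mRNAs that averaged 50 counts or more). The median mRNA had r = 0.69 in the same libraries, which differ in their share of mRNA. Of the phosphate mRNAs, *PHO4* had r = 0.86, *SPL2* 0.85, *PHO81* 0.81, *PHM8* 0.74, *VTC3* 0.74, *PHO89* 0.69, *PHO84* 0.67 and *PHO5* -0.20.

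The wider pathway was covered by 26 further phosphate genes, of which 22 had counts and 20 were tested. Relative to the UT IP, 7 of the 20 passed with Ccr4, 6 with Dhh1 and 2 with Puf5. These shares are below the background of 57.8%, 37.4% and 17.6%. The median log2 of the 20 was 0.77, 0.76 and 0.36, under the median mRNA in each IP. In the Ccr4 IP the highest were *KCS1* (1.77), for an inositol polyphosphate kinase of phosphate signalling, and *VTC5* (1.68), for a subunit of the polyphosphate polymerase, and the lowest were *PHO3* (-0.38) and *PHO88* (0.05). In the Dhh1 IP the highest were *PHO2* (1.45), which encodes the homeodomain partner of Pho4, and *VTC1* (1.35), and the lowest were *PHO88* (0.15) and *VTC4* (0.28). In the Puf5 IP *PHO3* (1.21) and *SYG1* (1.05) were highest and the only ones that passed, *PHO3* not without Puf5 IP replicate 3 and *SYG1* not without Puf5 IP replicate 1 (0.99) or UT IP replicate 1 (0.87), and neither with TMM factors. *DDP1* (-0.13) and *PPN1* (0.02), for a polyphosphatase, were lowest. Between the Ccr4 IP and the Dhh1 IP, 4 of the 20 differed, beside 14.7% of all RNAs. *VTC1* (-0.87 ± 0.16, edgeR, adjusted p = 0.00055) and *PHO3* (-0.92 ± 0.23, edgeR, adjusted p = 0.00805) were lower with Ccr4, and *PHO87*, for a low-affinity transporter (0.76, edgeR, adjusted p = 0.0193), and *KCS1* (0.61, edgeR, adjusted p = 0.0399) were higher. The lower calls held without each library and with TMM factors. That of *KCS1* was lost without any 1 of 5 libraries (all but Ccr4 IP replicate 3) and with TMM factors, and that of *PHO87* without Ccr4 IP replicate 2 or Dhh1 IP replicate 2 or 3. Between the Puf5 IP and the Ccr4 IP 1 was higher and 11 lower, beside 4.06% and 40.2% of all RNAs, and between the Puf5 IP and the Dhh1 IP 1 was higher and 6 lower, beside 3.17% and 8.82%.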

How the data were processed

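The authors trimmed SOLiD 4 reads by 15 bases at the 3′ end, mapped them to the 2007 yeast genome with SHRiMP 2.2.2, kept those with at least 90% of the best possible score, and counted them between published transcript ends. The deposited values are raw counts per RNA and per segment (each RNA split by length into 3), without normalization. The authors' own log2 enrichments were not used. RNA types came from the authors' annotation and symbols from the RefSeq R64 locus tags (4791 of 4792 mRNAs matched). No sequence or coordinate is given, since no genome of that build was used here.

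Tests on counts used edgeR 4.0.16 (glmQLFit and glmQLFTest, R 4.3.3), taking the total of all rows as library size, the default filter on low counts, and a prior count of 1 for log2 values. An RNA counted as enriched at an FDR (Benjamini-Hochberg over all RNAs tested) under 1% and a log2 over 1. Between 2 IPs, between UT IP and input, and between segments it counted as different at an FDR under 5%. The last test asked whether the 3′ to 5′ ratio depended on the group, blocking on library, for RNAs averaging 5 or more counts in both segments. A standard error is the log2 coefficient over the square root of F. Comparisons with the input used a fit that held all 14 libraries.

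The 10 genes and the list of 26 further phosphate genes were chosen with earlier results of these data known. All members were named. From the list, the 2 highest and 2 lowest log2 values in each IP were named, among genes averaging 20 or more counts. *PHM6* was left out of every test of a contrast with the Dhh1 IP or the UT IP, which is stricter than first planned, since it was chosen on them. Its other tests came from fits that also held those libraries, and were repeated in a fit of the Ccr4 IP, Puf5 IP and UT input libraries alone, chosen after seeing the data. *PHO87*, outside the naming rule, was named after its values were seen.

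Alternatives were TMM factors, totals over mRNAs, DESeq2 1.42.0, other filters and cutoffs, prior count 5, the input as reference, the exact Poisson test of the methods on pairs of replicates, a replicate block, and leaving out each library. The steps were tested on simulated data. Replicates of a group differed by more than counting error (chi-square per degree of freedom of 2.40 to 11.3), so none was a duplicate. Counts per mRNA and the spread between replicates set the precision, and errors are standard errors or SDs over replicates. Tables were handled with Python 3.11.15, pandas 2.3.3, numpy 2.4.6 and scipy 1.17.1, and plots drawn with matplotlib 3.10.9.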

Additional observations from a re-analysis of the deposited data

Results flagged for a closer look

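Tests of one IP directly against another picked out 10 differences between factors among the phosphate mRNAs. Between the Ccr4 IP and the Dhh1 IP these were *PHM8* (log2 of 1.51, higher with Ccr4) and *PHO5* (-1.25, lower with Ccr4). Between the Puf5 IP and the Ccr4 IP they were *PHM8* (-1.25), *PHO4* (-1.01), *PHO84* (-0.72), *PHO81* (-0.57) and *PHO5* (0.59). Between the Puf5 IP and the Dhh1 IP they were *PHO89* (-0.98), *PHO5* (-0.66) and *PHO84* (-0.60). *PHO5* appears in all 3 comparisons, which share libraries in pairs. Of all RNAs, 14.7%, 44.3% and 12% differed in these comparisons, and the median mRNA stood at 0.25, -0.56 and -0.34. With TMM factors, only *PHO5* of those named between Puf5 and Ccr4 still differed, and none of those between Puf5 and Dhh1.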

How the results depend on the processing

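The number enriched in the Ccr4 IP (6) fell to 2 with TMM factors, DESeq2 or the input as reference, and to 3 with totals over mRNAs or a log2 cutoff of 2. In the Dhh1 IP 4 fell to 1 under each of these. In the Puf5 IP 2 fell to 1 with TMM factors, DESeq2, totals over mRNAs, prior count 5 or a cutoff of 2, and to 0 over the input. The share of all RNAs that passed fell too. For Ccr4 it went from 57.8% to 5.63% (TMM factors), 5.67% (DESeq2) and 15.6% (totals over mRNAs). For Dhh1 it went from 37.4% to 1.14%, 1.40% and 3.19%, and for Puf5 from 17.6% to 4.45%, 4.88% and 5.66%. Over the input the shares were 23.3%, 2.72% and 4.49%. Differences between the Ccr4 IP and the Dhh1 IP rose from 2 to 4 with TMM factors or DESeq2, between the Puf5 IP and the Ccr4 IP fell from 5 to 2 with either and to 3 with totals over mRNAs, and between the Puf5 IP and the Dhh1 IP fell from 3 to 0 with either. Of all RNAs, 14.7% rose to 15.9% and 16.7% in the first of these. In the second 44.3% fell to 27.3%, 27.3% and 32.7%, and in the third 12% fell to 7.72% and 8.49%. Between the UT IP and the input 2 fell to 0 under these 3 scalings, while the share of all RNAs fell from 10.2% to 2.88%, 3.50% and 3.00%. The segment calls (1 for Ccr4, 2 for Puf5) fell to 0 under these scalings and over the input. In 16 of 27 pairs of an mRNA and an IP the 3′ segment had the highest log2, which fell to 9 with TMM factors and 7 with totals over mRNAs. These pairs include those of *PHM6*, and the share of all mRNAs was not taken. The median mRNA was itself highest in the 3′ segment. Its log2 in the 5′, middle and 3′ segments was 1.03, 1.04 and 1.42 with Ccr4. It was 0.79, 0.78 and 1.14 with Dhh1, and 0.33, 0.48 and 0.90 with Puf5.

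Some log2 values over the UT IP changed sign. With TMM factors and DESeq2, *PHO84* was at -0.11 and -0.16 for Ccr4, -0.0048 and -0.022 for Dhh1, and -0.27 and -0.31 for Puf5, *PHO89* at -0.016 and -0.064 for Ccr4, *VTC3* at -0.36 and -0.41 for Ccr4 and -0.031 and -0.061 for Puf5, and *PHO5* at -0.28 and -0.30 for Dhh1. *PHM6* in the Puf5 IP over the Ccr4 IP turned to 0.26 and 0.28. With totals over mRNAs *PHO5* for Dhh1 was at -0.012 and *PHO84* for Puf5 at -0.18. *PHO5* for Puf5 ran from -0.23 to 0.15 with 1 library left out, and was 0.03, 0.12 and 0.15 without Puf5 IP replicate 1, Puf5 IP replicate 2 and UT IP replicate 2.

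With each library left out in turn, the number enriched was 5 to 6 for Ccr4, 4 to 5 for Dhh1 and 1 to 2 for Puf5. The number that differed was 1 to 2 between Ccr4 and Dhh1, 2 to 5 between Puf5 and Ccr4, 0 to 3 between Puf5 and Dhh1, and 0 to 1 between UT IP and input. Segment calls were 0 to 1 for Ccr4, 0 to 0 for Dhh1 and 1 to 2 for Puf5, and 15 to 17 pairs were highest in the 3′ segment. The cause of these changes was not tested.

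Over all groups, no pairing by replicate number was detected (correlations of same-numbered deviations from -0.0605 to 0.144, 1 of 26 over 0.1). This cannot exclude pairing between particular groups. Same-numbered libraries had 0.144 and 0.077 between UT IP and UT input, and 0.047 to 0.051 between Ccr4 IP and UT IP. Between Ccr4 IP and Dhh1 IP they had -0.050 to 0.0076. The replicate block left the counts at 6, 4 and 2 over the UT IP, 2 and 5 between Ccr4 and the other factors, and 1, 0 and 2 for the segments, and raised 3 to 4 between Puf5 and Dhh1. Between UT IP and UT input the block took the share of all RNAs that differed from 10.2% to 8.87%. The *SPL2* and *VTC3* calls there come from the fit without a block. *PHM6* kept its calls in a fit of the Ccr4 IP, Puf5 IP and UT input libraries alone, an alternative chosen after seeing the data. Depth limits *PHM8* and *PHM6*, which had 3 to 20 counts in the UT IP libraries.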
